A study of Homo sapiens with 6 samples.

Results

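The heterogeneous nuclear ribonucleoproteins (hnRNPs) were followed as a family of 31 genes among the 60671 genes of each table: the hnRNPs named by letter, the poly(C)-binding proteins PCBP1 to PCBP4, the polypyrimidine tract-binding proteins PTBP1 to PTBP3, and RALY, SYNCRIP, KHSRP and ELAVL1. The members were chosen with earlier results of these data known, HNRNPK and HNRNPD among them. Their rows were found by name, through their Ensembl identifiers, and each gene was found in each of the 6 tables. KGN is a human granulosa cell line, here genome-edited to FOXL2 WT/WT, which both groups shared. In 3 libraries the cells had received 30 pmol of siRNAs against FOXL2, and in 3 libraries an equal amount of a scrambled control siRNA. RNA was taken after 30 h, and mRNA was sequenced with stranded libraries. Each FOXL2 siRNA replicate was a different pool of 3 siRNAs, drawn from 4, with 1 siRNA present in all of them, so an effect of that siRNA on other transcripts and an effect of the loss of FOXL2 cannot be told apart. The sample titles number the libraries of both groups as pools, called replicates here, without a statement that they came from separate cultures. A p-value then measures only the spread between these samples.

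These proteins coat nascent transcripts in the nucleus and bind short sequence elements through RNA recognition motifs, K homology (KH) domains or glycine-rich stretches. They repress or activate exons, and several of them also act on polyadenylation, mRNA stability, export and translation. FOXL2 is a forkhead transcription factor needed for the granulosa cell fate, and the study examined whether its forkhead domain also binds RNA rich in G doublets. HNRNPK, a poly(C)-binding protein with KH domains, and HNRNPD, also called AUF1, which binds AU-rich elements and promotes decay of many mRNAs, were examined first, to see whether they moved with the rest of the family.

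The files held between 23843192 and 28791954 expected counts per library. FOXL2 itself was at 10.1 ± 0.596 CPM (normalised read count, scaled to library size by TMM, SD, n = 3) in the control libraries and at 2.77 ± 0.487 in the FOXL2 siRNA libraries, which is 27.3% of the control level. Of 15 granulosa cell markers, 9 passed the filter on low counts, and FSHR and WT1 were at 0 TPM (RSEM's abundance scaled to transcript length and library) in every library. The markers summed to between 220 and 224 TPM in the control libraries and between 193 and 220 TPM in the FOXL2 siRNA libraries. The 16 markers of other ovarian or blood cells summed to between 4983 and 5597 TPM against between 4899 and 5801 TPM, nearly all of it COL1A1. FOXL2 siRNA replicate 2 stood apart on the first principal component (31.2% of the variance), where it scored 40.9 and the other 5 libraries lay between -17.2 and -0.025. Where leaving out that library changed a call of a member or the length difference of HNRNPK or HNRNPD, both values are given.

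HNRNPK and HNRNPD were lower in every FOXL2 siRNA library than in every control library, while most of the family lay close to its control level. Of all genes tested, 10.6% were lower without overlap in CPM and 9.07% in TPM. Ranked from the lowest log2 fold change of all genes tested, HNRNPK was at percentile 6.28 and HNRNPD at percentile 11.4. HNRNPK was at 0.792 and HNRNPD at 0.851 of the control level in the fit across all genes. HNRNPA0 and HNRNPF were at 0.806 and 0.818, and the next lowest member, HNRNPR, was at 0.923. In the quasi-likelihood test of edgeR, adjusted over 15663 genes by the Benjamini-Hochberg method, 0 of the 30 members that passed the filter had an adjusted p below 0.05, where 0.255% of all genes tested did. Without adjustment, 4 members were lower at p below 0.05 (HNRNPK, HNRNPA0, HNRNPF and HNRNPD), against 6.88% of all genes tested, and 1 was higher (PTBP3), against 6.62%. DESeq2, the tool that the study used, gave 3 members an adjusted p below 0.05, all lower (HNRNPK, HNRNPA0 and HNRNPD), where 3.06% of the genes with an adjusted p were called and 1.81% were called lower. With effective lengths DESeq2 called 2 members, both lower (HNRNPK and HNRNPD), where 3.22% of genes were called and 2.03% were called lower. The family's median log2 fold change was -0.05, against 0.01 for all genes tested, and 24 of 30 members lay below 0, where 48.6% of all genes tested did. With those 4 genes left out, which were chosen after their values were seen, the median was -0.04. The median absolute log2 fold change was 0.05 for the members and 0.12 for all genes tested.

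**Figure D1:**
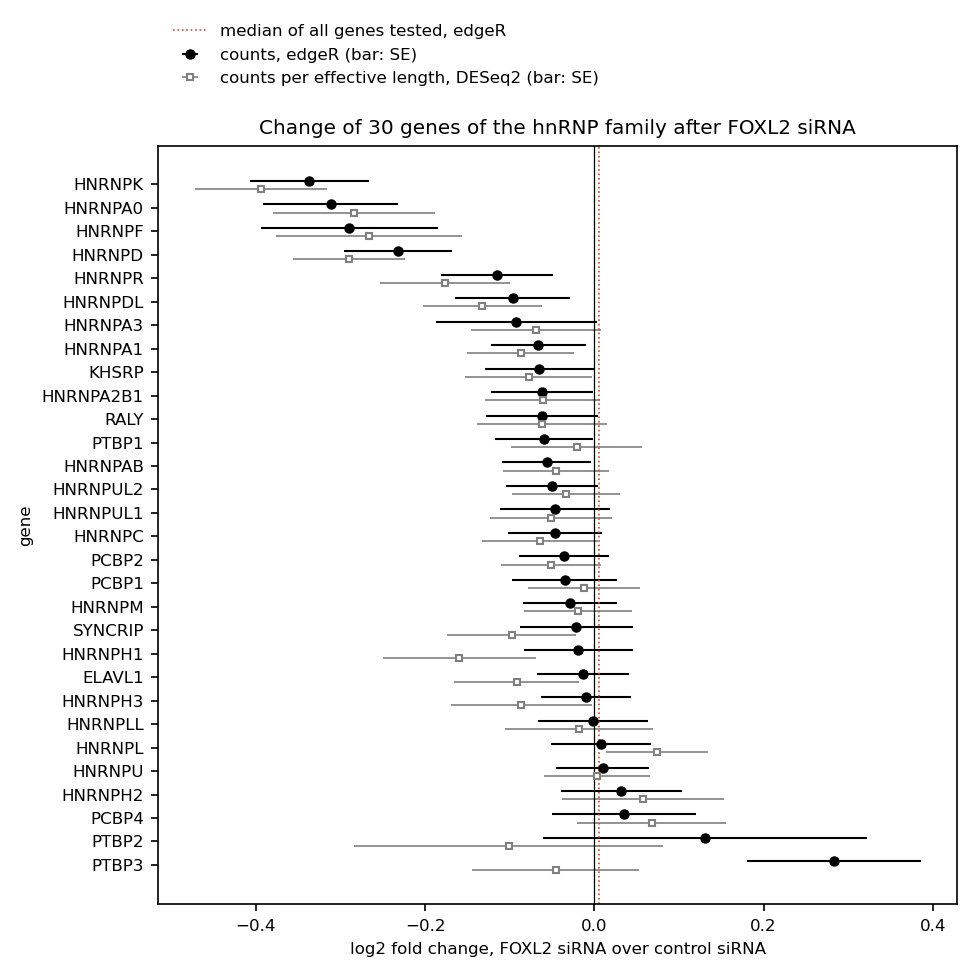
Log2 fold change of each of the 30 members that passed the filter, FOXL2 siRNA over control siRNA, with its SE (black, edgeR on counts; grey squares, DESeq2 with the effective length of each gene in each library). HNRNPK, HNRNPA0, HNRNPF and HNRNPD lie between -0.34 and -0.23 on counts, 25 members, PTBP2 at 0.13 among them, lie within 0.15 of 0, and PTBP3 lies at 0.28 on counts but below 0 once its length is taken into account.

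HNRNPK (ENSG00000165119, GRCh38 chr9:83968083-83980616, minus strand) was at 683, 658 and 658 TPM in the control libraries and at 449, 543 and 535 TPM in the FOXL2 siRNA libraries. The groups did not overlap, and FOXL2 siRNA replicate 1 was the lowest. On counts the log2 fold change was -0.34 (SE 0.07, edgeR adjusted p = 0.11, DESeq2 adjusted p = 0.0015). Taking RSEM's effective length of the gene into account moved it to -0.39 (SE 0.08, DESeq2 adjusted p = 0.00011). It ranked 4th among the members by mean control TPM. Copies named as pseudogenes of HNRNPK held 0.737% of its counts in the control libraries, and adding them to the gene left its log2 fold change at -0.34.

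HNRNPD (ENSG00000138668, chr4:82352498-82374503, minus strand) was at 334, 346 and 333 TPM in the control libraries and at 260, 293 and 278 TPM in the FOXL2 siRNA libraries. Again the groups did not overlap and FOXL2 siRNA replicate 1 was the lowest. Its control libraries were close together, at 263, 263 and 263 CPM, against 211, 241 and 221 CPM after FOXL2 siRNA. The log2 fold change was -0.23 (SE 0.06, edgeR adjusted p = 0.18, DESeq2 adjusted p = 0.048), and -0.29 with effective lengths (SE 0.07, DESeq2 adjusted p = 0.0015).

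HNRNPA0 (ENSG00000177733, chr5:137745651-137754376, minus strand), a minor hnRNP of the A and B type encoded by a gene with a single annotated transcript, was at 150, 145 and 150 CPM in the control libraries and at 107, 132 and 120 CPM in the FOXL2 siRNA libraries. The groups did not overlap. Its log2 fold change was -0.31 (SE 0.08, edgeR adjusted p = 0.16, DESeq2 adjusted p = 0.021). With effective lengths the value was -0.28 and was not called (DESeq2 adjusted p = 0.073). The mean effective length of HNRNPA0 itself hardly differed, at 8541 bases in the control libraries and 8545 bases in the FOXL2 siRNA libraries. Why its value shifted in that fit was not tested. HNRNPF (ENSG00000169813, chr10:43385617-43409166, minus strand), which binds G tracts and regulates exons beside them, was at 233, 231 and 233 CPM against 159, 221 and 190 CPM. Its groups did not overlap in CPM but did in TPM, since FOXL2 siRNA replicate 2 lay at 176 TPM and control replicate 2 also at 176 TPM. The log2 fold change of HNRNPF was -0.29 (SE 0.10, edgeR adjusted p = 0.29, DESeq2 adjusted p = 0.12).

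**Figure D2:**
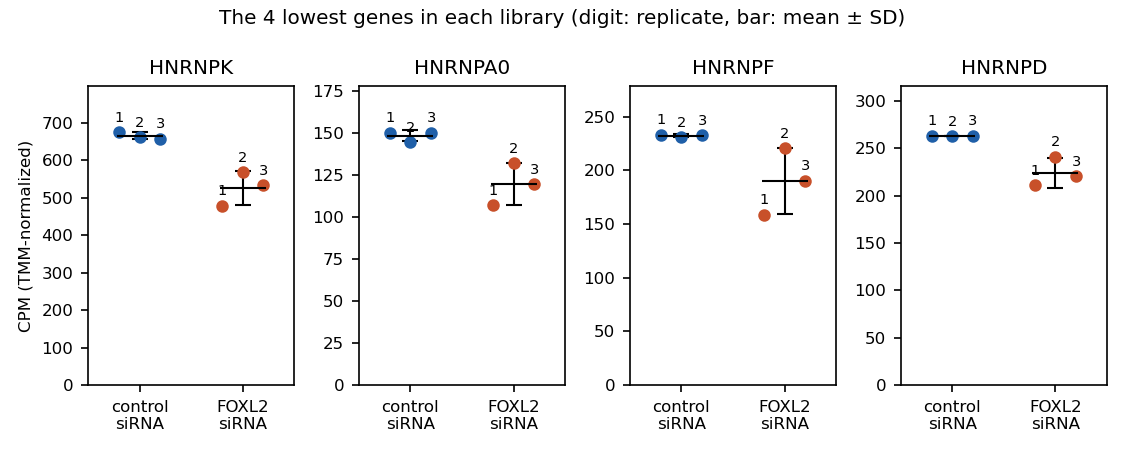
TMM-normalized CPM of HNRNPK, HNRNPA0, HNRNPF and HNRNPD in each library (blue, control siRNA; red, FOXL2 siRNA; the digit is the replicate), with the mean and SD of each group. Each FOXL2 siRNA library lies below the 3 control libraries, and FOXL2 siRNA replicate 1 is the lowest in each panel.

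All 4 of these genes had the same order of the FOXL2 siRNA libraries, with replicate 1 below replicate 3 and replicate 3 below replicate 2. It was found in 9 of the 30 members, where 18.3% of all genes tested had it. The order was taken from these 4 genes, which are among the 9, so that count is not a separate test. The others were HNRNPA2B1, HNRNPA3, HNRNPR, KHSRP and PTBP1. FOXL2 itself had 72, 80 and 68 counts in replicates 1, 2 and 3, which is 2.64, 3.31 and 2.36 CPM. Its lowest library was thus replicate 3, not replicate 1, though the counts of these 2 replicates differed by less than counting error. In edgeR without FOXL2 siRNA replicate 2, 4 members were called, with adjusted p of 0.0081 for HNRNPK, 0.011 for HNRNPA0, 0.016 for HNRNPD and 0.019 for HNRNPF, and 3.61% of all genes tested were called. DESeq2 without that library called 5 members, where 7.29% of genes were called. These were the same 4 and HNRNPA3, at -0.22 (DESeq2 adjusted p = 0.0051), with HNRNPF at -0.41 (DESeq2 adjusted p = 2.2e-05). Leaving out any other library left 0 members called in edgeR. In DESeq2, HNRNPK was not called without control siRNA replicate 1 (adjusted p = 0.099) or replicate 2 (0.060), and was called without each of the other libraries. HNRNPD and HNRNPA0 were called in DESeq2 only without FOXL2 siRNA replicate 2 among the 6 omissions. For HNRNPD the adjusted p reached 0.43 without control siRNA replicate 1, 0.35 without replicate 2, 0.19 without replicate 3, 0.15 without FOXL2 siRNA replicate 1 and 0.11 without replicate 3. The corresponding values for HNRNPA0 were 0.35, 0.18, 0.16, 0.080 and 0.068. HNRNPK kept a log2 fold change between -0.40 and -0.27 and HNRNPD between -0.29 and -0.19 over the 6 omissions in edgeR. HNRNPF moved further, to -0.18 without FOXL2 siRNA replicate 1 and -0.42 without replicate 2.

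To ask how HNRNPK and HNRNPD moved against their own relatives, TPM ratios were formed within 15 pairs of related members. HNRNPK over PCBP2, which shares its KH domains and its preference for C-rich RNA, was 1.23, 1.18 and 1.18 in the control libraries, against 0.832, 1.00 and 0.995 after FOXL2 siRNA. HNRNPK over PCBP1 was 2.85, 2.79 and 2.62 against 1.92, 2.24 and 2.17. HNRNPD over HNRNPDL, its nearest paralog, was 1.19, 1.13 and 1.15 against 1.00, 1.02 and 1.08. The ratio of HNRNPD to HNRNPAB was 1.41, 1.49 and 1.43 against 1.19, 1.23 and 1.23. In each of these 4 pairs the FOXL2 siRNA libraries lay below the control libraries. All 4 have HNRNPK or HNRNPD as the first gene, and both were chosen with earlier results of these data known. Both were lower in TPM without overlap by themselves, so these ratios are not a separate test of that fall. The other 11 pairs overlapped, among them PCBP1 over PCBP2, which was between 0.422 and 0.449 in the control libraries and between 0.433 and 0.458 in the FOXL2 siRNA libraries. A two-sided exact permutation test gave p = 0.1 for each of the 4 pairs, the smallest p that 3 libraries against 3 allow, and 0.375 after adjustment over the 15 pairs. HNRNPK made up 7.49% ± 0.19 of the members' summed TPM in the control libraries and 6.10% ± 0.50 in the FOXL2 siRNA libraries. For HNRNPD the share was 3.80% ± 0.046 against 3.33% ± 0.14.

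**Figure D3:**
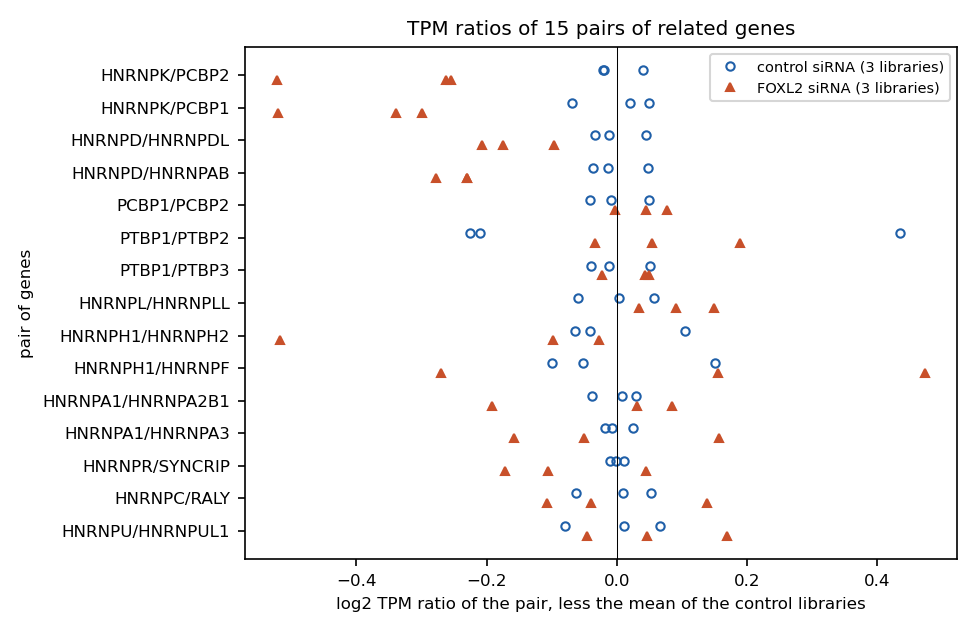
Log2 TPM ratio of 15 pairs of related genes in each library, less the mean of the control libraries (circles, control siRNA; triangles, FOXL2 siRNA). The triangles lie to the left of every circle in the 4 pairs with HNRNPK or HNRNPD as the first gene, and the groups overlap in the other 11 pairs.

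The family was strongly expressed. HNRNPA1, an exon repressor, was the most abundant member at 1230 ± 31.1 TPM in the control libraries, and HNRNPA2B1 followed at 876 ± 26.3 TPM. At the other end stood PTBP3 at 13.3 ± 0.922 TPM and PTBP2, the neural paralog of PTBP1, at 9.91 ± 1.96 TPM. PCBP3 did not pass the filter and had between 0 and 2 counts in every library. The 31 members summed to 8899 ± 152 TPM in the control libraries and 8328 ± 176 TPM in the FOXL2 siRNA libraries, 0.890% and 0.833% of all TPM. Without HNRNPK, HNRNPA0, HNRNPF and HNRNPD the sums were 7692 ± 145 and 7372 ± 81.5 TPM. In bulk samples fewer cells of a type and less RNA per cell cannot be told apart.

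**Figure D4:**
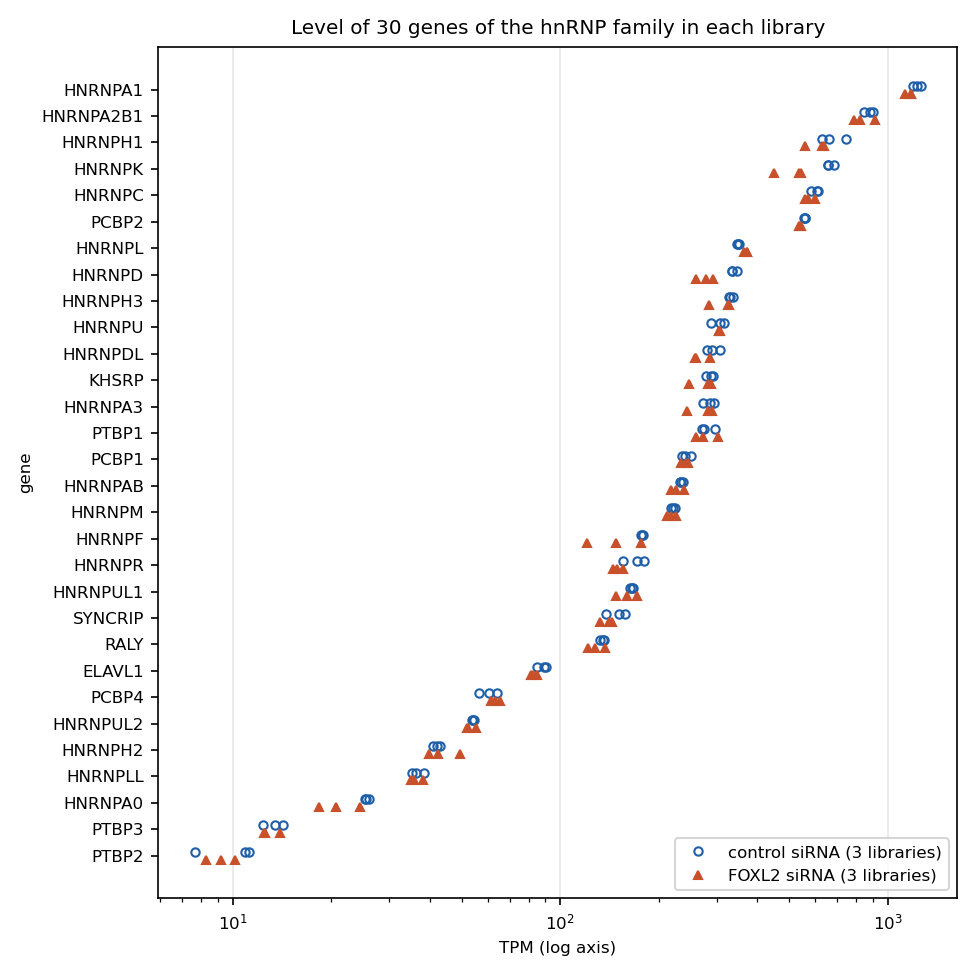
TPM of the 30 members that passed the filter in each library, on a log axis (circles, 3 control siRNA libraries; triangles, 3 FOXL2 siRNA libraries). Levels run from about 9.91 TPM for PTBP2 to 1230 TPM for HNRNPA1. The triangles of HNRNPK, HNRNPD, HNRNPA0, HNRNPA1 and PCBP2 lie to the left of the circles, and those of HNRNPL to the right.

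Among the 7 members of the A and B type, which carry paired RNA recognition motifs, all had a log2 fold change below 0, from -0.31 for HNRNPA0 to -0.06 for HNRNPAB. HNRNPA1 was at 1231, 1260 and 1198 TPM in the control libraries and at 1176, 1125 and 1180 TPM in the FOXL2 siRNA libraries. These did not overlap in TPM, as in 5 of 30 members, where 9.07% of all genes tested lay lower without overlap. They overlapped in CPM, and the log2 fold change was -0.07 (SE 0.06). HNRNPA2B1, linked to N6-methyladenosine in RNA, was at -0.06 (SE 0.06), and HNRNPA3 at -0.09 (SE 0.10). In edgeR the value of HNRNPA3 was -0.22 without FOXL2 siRNA replicate 2 (edgeR adjusted p = 0.058) and -0.01 without replicate 1. HNRNPAB was at -0.06 (SE 0.05), and its groups did not overlap in CPM. Together with the 4 lowest genes this made 5 of 30 members lower without overlap in CPM, where 10.6% of all genes tested were. HNRNPDL was at -0.10 (SE 0.07).

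The KH domain proteins other than HNRNPK stayed near their control levels. PCBP2, which stabilises mRNAs with C-rich elements, was at 556, 559 and 559 TPM in the control libraries and at 540, 542 and 537 TPM in the FOXL2 siRNA libraries. The groups did not overlap in TPM, with a log2 fold change on counts of -0.04 (SE 0.05), which is smaller than its SE. PCBP1 was at -0.04 (SE 0.06), and PCBP4, the third highest member, at 0.04 (SE 0.08, edgeR adjusted p = 0.89). The value of PCBP4 was below 0 in edgeR without control siRNA replicate 1 (-0.03) and without FOXL2 siRNA replicate 3 (-0.02). KHSRP, which promotes decay of mRNAs with AU-rich elements, was at -0.07 (SE 0.06).

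Of the F and H type, HNRNPH1 was the most abundant at 679 ± 59.6 TPM, with a log2 fold change of -0.02 (SE 0.06) on counts and values between 558 and 637 TPM in the FOXL2 siRNA libraries against between 631 and 746 TPM in the control libraries. With effective lengths its value was -0.16 (SE 0.09, DESeq2 adjusted p = 0.42), and its effective length was 1142 bases in FOXL2 siRNA replicate 2 and between 816 and 862 bases in the other 5 libraries. HNRNPH3 was at -0.01 (SE 0.05) and HNRNPH2 at 0.03 (SE 0.07). The C type proteins HNRNPC, which binds U tracts and sorts transcripts by length, and RALY were at -0.05 (SE 0.06) and -0.06 (SE 0.07). The U type proteins were at 0.01 for HNRNPU, which associates with chromatin, -0.05 for HNRNPUL1 and -0.05 for HNRNPUL2. HNRNPUL2 shares sequence with the read-through gene HNRNPUL2-BSCL2, whose counts amounted to 68.3% of those of HNRNPUL2, so the division of reads between them is uncertain. HNRNPM, HNRNPR, SYNCRIP and ELAVL1, which stabilises mRNAs with AU-rich elements, were at -0.03, -0.12, -0.02 and -0.01, each with an edgeR adjusted p of at least 0.48. HNRNPA1 is also uncertain in this respect, since its copies held 5.05% of its counts in the control libraries, among them HNRNPA1L3 with 1.52%, HNRNPA1P7 with 1.49% and HNRNPA1L2 with 1.25%. HNRNPA3P6 held 3.17% of the counts of HNRNPA3, HNRNPCP2 1.05% of those of HNRNPC and the antisense gene PCBP1-AS1 1.90% of those of PCBP1.

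The L and PTB type held the highest members. PTBP3 was at 42.0, 37.5 and 36.2 CPM in the control libraries and at 45.9, 53.4 and 41.6 CPM in the FOXL2 siRNA libraries, with an overlap between control replicate 1 and FOXL2 siRNA replicate 3. Its log2 fold change was 0.28 (SE 0.10, edgeR adjusted p = 0.29, DESeq2 adjusted p = 0.21), and 0.18 without FOXL2 siRNA replicate 2. In TPM, which divides by effective length, PTBP3 was at 13.4, 12.4 and 14.2 in the control libraries and at 12.5, 13.9 and 12.5 in the FOXL2 siRNA libraries, and with effective lengths in DESeq2 the value turned to -0.05 (adjusted p = 0.90). PTBP2 was at 9.33, 11.8 and 8.66 CPM against 9.33, 14.3 and 9.12 CPM, a log2 fold change of 0.13 (SE 0.19, edgeR adjusted p = 0.81) that turned to -0.10 with effective lengths and to -0.11 without FOXL2 siRNA replicate 2. PTBP1, the ubiquitous repressor of the family, was at -0.06 (SE 0.06). HNRNPL, which binds CA repeats, was at 351, 347 and 349 TPM in the control libraries and at 370, 372 and 363 TPM in the FOXL2 siRNA libraries. It was 1 of 30 members with TPM higher without overlap, where 9.30% of all genes tested were, and its log2 fold change on counts was 0.01 (SE 0.06). HNRNPLL, its paralog, was at -0.0015 (SE 0.06).

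Members of this family often regulate their own and each other's transcripts through exons or introns that lead to decay, and such changes alter the mix of transcripts of a gene. The tables give 1 measure of that mix, the effective length, which is the average length of the gene's transcripts weighted by their estimated abundance in that library. In limma on log2 effective lengths, 0 of the 30 members had an adjusted p below 0.05, where 0.00% of all 15662 genes tested did. At an unadjusted p below 0.05 there was 1 member, PTBP3, where 5.43% of all genes tested passed. The effective length of PTBP3 was 4649, 4514 and 3687 bases in the control libraries and 5383, 6050 and 4927 bases in the FOXL2 siRNA libraries. All of the FOXL2 siRNA libraries lay above the control libraries, a log2 difference of 0.35 (SE 0.13, limma adjusted p = 0.88).

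HNRNPK had an effective length of 1468, 1499 and 1450 bases in the control libraries and 1558, 1648 and 1481 bases in the FOXL2 siRNA libraries, a log2 difference of 0.08 (SE 0.04, limma adjusted p = 0.88). For HNRNPD it was 1172, 1133 and 1147 bases against 1188, 1297 and 1175 bases, also a log2 difference of 0.08 (SE 0.04, limma adjusted p = 0.88). Without FOXL2 siRNA replicate 2 the differences were 0.04 (SE 0.03) for HNRNPK and 0.04 (SE 0.02) for HNRNPD. For HNRNPF the log2 difference was 0.0040. HNRNPA0, HNRNPH2 and PCBP1 have a single annotated transcript (GENCODE v29), so their effective length cannot show a change in the mix. Of the other 27 members, 23 had a longer mean effective length after FOXL2 siRNA, where 65.3% of the 13223 tested genes with more than 1 transcript did. The FOXL2 siRNA libraries were all above the control libraries in 5 of 27 (HNRNPA1, HNRNPAB, HNRNPD, HNRNPUL1 and PTBP3), where 8.86% of such genes were. FOXL2 siRNA replicate 2 held the highest effective length in 20 of 27, where 33.3% of such genes had theirs. In that library the median log2 effective length over the control mean was 0.10 for the 27 members, against 0.03 for the genes with more than 1 transcript. Over all 30 members it was 0.09, against 0.01 for all genes tested, and in FOXL2 siRNA replicates 1 and 3 it was 0.02 and 0.01. What set that library apart was not tested.

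**Figure D5:**
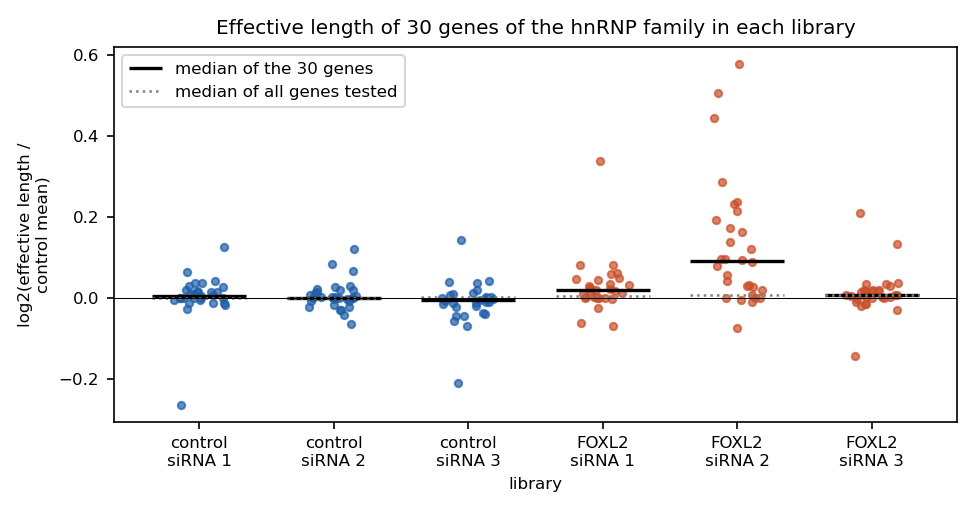
Log2 of the effective length of each of 30 members over its mean in the control libraries, by library (points, genes; solid line, median of the members; dotted line, median of all genes tested). The median of the members is 0.09 in FOXL2 siRNA replicate 2 and at most 0.02 in every other library.

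A looser form of the RNA motif the study examined, without the bases that its consensus fixes between some doublets, was sought in the longest annotated transcript of each gene (GENCODE v29, GRCh38) as 8 GG doublets separated by 1 to 4 bases, on the transcript strand. It was present in 15 of 30 members, where 19.3% of the tested genes with a transcript held it. With gaps of 1 to 3 bases it was present in 7 members, against 7.95% of genes, and 4 doublets with gaps of 1 to 4 bases were present in 29 members, against 87.2%. For 8 of the members the longest transcript was a retained-intron or other transcript without a coding sequence. HNRNPD is among them, so its coding transcripts were not searched. Of the 4 lowest genes HNRNPA0 held the motif, at 5 places, and HNRNPK, HNRNPF and HNRNPD did not hold it in the transcript searched. The median log2 fold change was -0.06 in the 15 members with the motif and -0.04 in the 15 without it, and it was -0.01 and 0.01 in all genes with and without it. The sites in HNRNPA3 lay in coding sequence, as did most of those in HNRNPA0 and HNRNPA1, and every glycine codon begins with GG. For HNRNPK, HNRNPF and HNRNPD the stretches shown are the longest runs of doublets with such gaps in the transcript searched, with 7, 6 and 5 doublets. Capitals mark the doublets.
HNRNPA0, coding sequence, exon 1, chr5:137753234-137753256, minus strand: GGcGGcGGcGGcGGcGGtGGaGG
HNRNPA1, coding sequence, exon 6, chr12:54282596-54282624, plus strand: GGtGGtGGtcgtGGaGGtGGtttcGGtGG
HNRNPK, 5' UTR, exon 1, chr9:83980165-83980194, minus strand: GGctgaGGcGGcgcGGcagcGGaGGgacGG
HNRNPF, coding sequence, exon 3, chr10:43387184-43387210, minus strand: GGcaGGcctGGaaaGGatgaGGcctGG
HNRNPD, coding in another transcript of the gene, chr4:82356587-82356606, minus strand: GGttacGGtGGttatGGaGG

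As FOXL2 is also a DNA-binding forkhead protein, the 250 bases before the start site were searched for TAAACA, a core that forkhead proteins bind, and for the shorter AAACA that it contains, on both strands (RefSeq, GRCh38.p14). Of the members, 28 had an entry, and a member counted where any of its windows held a match. The shares of all promoters count each window by itself, so the units differ. TAAACA was present in 1 of them, PTBP3, where 3860 of all 35116 promoters held it. AAACA was present in 10 of 28, HNRNPD and HNRNPF among them, where 40.4% of all promoters held it. The windows of HNRNPD and HNRNPF lay within the genes as annotated in GENCODE v29, not before them. Neither HNRNPK nor HNRNPA0 held a match in any of their windows. The windows of the members were rich in G and C, with a median of 66.0% against 58.0% for all promoters. The promoters of both genes are shown as examples of such windows, each ending at the last base before the annotated gene, in lower case since they hold no match.
HNRNPK, chr9:83980617-83980865, minus strand: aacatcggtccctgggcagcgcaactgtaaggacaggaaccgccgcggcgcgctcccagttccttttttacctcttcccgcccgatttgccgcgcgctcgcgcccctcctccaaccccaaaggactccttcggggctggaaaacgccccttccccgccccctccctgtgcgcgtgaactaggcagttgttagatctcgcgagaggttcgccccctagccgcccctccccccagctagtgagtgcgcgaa
HNRNPA0, chr5:137754377-137754613, minus strand: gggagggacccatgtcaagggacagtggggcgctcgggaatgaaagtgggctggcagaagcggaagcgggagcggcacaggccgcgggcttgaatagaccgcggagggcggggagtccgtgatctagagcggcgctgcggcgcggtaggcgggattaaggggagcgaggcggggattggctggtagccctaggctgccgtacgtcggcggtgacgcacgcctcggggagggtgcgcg

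The rest of the splicing machinery was read from lists of genes by function. Of the 13 SR proteins tested, the activators that often oppose hnRNPs, 0 had an edgeR adjusted p below 0.05, where 0.255% of all genes tested did. At an unadjusted p there were 0, where 13.5% of all genes tested passed, and DESeq2 on counts called 0, where 3.06% were called. The farthest from 0 in edgeR was SRSF8 with a log2 fold change of -0.27 (SE 0.13, edgeR adjusted p = 0.38). Among 7 kinases of SR proteins, 0 were called (1 at an unadjusted p, 0 in DESeq2), with CLK3 the farthest at -0.18 (SE 0.07, edgeR adjusted p = 0.33). Of 30 proteins of the U1, U2 and U5 snRNPs and U2AF, 0 were called (2 at an unadjusted p, 0 in DESeq2), and SNRPE, a core Sm protein, was at 0.25 (SE 0.08, edgeR adjusted p = 0.24). In 15 factors of nonsense-mediated decay 0 were called (1 at an unadjusted p, 0 in DESeq2). Of 33 rows of other splicing and RNA-binding regulators, 0 were called by edgeR and 7 passed an unadjusted p. DESeq2 on counts called 1 lower and 1 higher. MATR3 held 2 of these rows, under different identifiers, with log2 fold changes of 0.11 and -0.22. With effective lengths DESeq2 called 2 further genes of these lists, SRSF11 and TIA1, both lower, where 3.22% of genes were called. Without FOXL2 siRNA replicate 2, DESeq2 on counts called 11 genes of these lists and edgeR 4, where 7.29% and 3.61% of all genes were called.

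The gene DESeq2 called lower on counts was NCL, nucleolin, a nucleolar protein that binds G quadruplexes. It was at 821, 807 and 828 CPM in the control libraries and at 660, 715 and 719 CPM in the FOXL2 siRNA libraries. Its groups did not overlap, with a log2 fold change of -0.23 (SE 0.06, edgeR adjusted p = 0.16, DESeq2 adjusted p = 0.019). The gene called higher was ZFP36L1, which promotes decay of mRNAs with AU-rich elements as HNRNPD does. It was at 171, 169 and 171 CPM against 199, 219 and 227 CPM. The log2 fold change of ZFP36L1 was 0.34 (SE 0.06, edgeR adjusted p = 0.091, DESeq2 adjusted p = 0.0015). In DESeq2, NCL was not called without control siRNA replicate 1 (adjusted p = 0.27), replicate 2 (0.15) or replicate 3 (0.11), and ZFP36L1 was not called without control siRNA replicate 1 (adjusted p = 0.059) or replicate 2 (0.060). In edgeR, both were called without FOXL2 siRNA replicate 2 (adjusted p = 0.035 for NCL and 0.029 for ZFP36L1), and ZFP36L1 also without FOXL2 siRNA replicate 1 (0.032). SRSF11, an SR protein, was at 153, 157 and 173 TPM in the control libraries and at 130, 126 and 127 TPM in the FOXL2 siRNA libraries. Its log2 fold change was -0.34 with effective lengths (SE 0.08, DESeq2 adjusted p = 0.0032) and -0.09 on counts (SE 0.10, edgeR adjusted p = 0.75), where its groups overlapped. TIA1, which promotes use of weak 5' splice sites, was at 67.7, 63.8 and 64.0 TPM against 51.0, 47.0 and 48.1 TPM. The log2 fold change of TIA1 was -0.42 with effective lengths (SE 0.10, DESeq2 adjusted p = 0.0015) and -0.21 on counts (SE 0.12, edgeR adjusted p = 0.48). In edgeR with effective lengths neither was called (adjusted p = 0.11 for SRSF11 and 0.077 for TIA1). The medians of these lists lay between -0.06 and -0.03, beside -0.05 for the hnRNP family and 0.01 for all genes tested. Log2 fold changes below 0 were found in 8 of 13 SR proteins, 4 of 7 kinases and 22 of 30 snRNP and U2AF proteins. They were also found in 10 of 15 decay factors and 24 of 33 other regulators. In the hnRNP family it was 24 of 30, and 48.6% of all genes tested, so the tilt was not particular to the family.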

How the data were processed

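Gene expression was measured by single-read sequencing of stranded mRNA libraries from KGN cells, 3 with FOXL2 siRNA and 3 with control siRNA, grouped by the siRNA in the labels. The authors aligned reads with STAR 2.7.6a, checked them with Picard 2.8.1 and estimated expression with RSEM 1.3.1. The submitters' processing notes name GRCm38, a mouse build, while the identifiers are human Ensembl genes. The sources used here give neither the annotation release nor the strand setting of the counting. The deposited tables hold, per gene and library, an expected count that the authors obtained from RSEM without normalization, and an effective length. They also hold TPM and FPKM, which the authors obtained from RSEM scaled to transcript length and library, and FPKM was not used.

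Expected counts were rounded. Genes were kept by filterByExpr, libraries were scaled by TMM, and the conditions were compared in edgeR 4.0.16 (glmQLFit, glmQLFTest) in R 4.3.3, and p-values were adjusted by the Benjamini-Hochberg method, with 0.05 as the threshold. The study used DESeq2 1.26.0, and DESeq2 1.42.0 was run here as an alternative, on counts and with effective lengths as offsets. Effective lengths were compared with limma 3.58.1. Errors are SDs of 3 libraries or SEs of a fit. Copies are rows named as pseudogenes or copies of a member. The tests were checked on simulated data. The range of depth over the libraries is given in the report, and no interval for a single library was needed. Other alternatives were other scalings and filters, limma on TPM, the replicate block and each library left out in turn. The older estimate of the quasi-dispersion was added after seeing the data.

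The members and lists were chosen with earlier results of these data known, HNRNPK and HNRNPD among them. Values are given for all 31 members, with full statistics for HNRNPK, HNRNPD, members called by edgeR or DESeq2, and the 3 highest and 3 lowest. From each other list the genes called by edgeR, or by DESeq2 on counts or with effective lengths, are named, and otherwise, or where only lengths gave a call, the gene with the largest absolute log2 fold change. For the factors of nonsense-mediated decay that gene is not reported here, nor are some of the motif sites. Related rows are named where they hold over 1% of the counts of a member. Proteins were not analysed here.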

Additional observations from a re-analysis of the deposited data

How the results depend on the processing

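HNRNPK and HNRNPD kept a negative log2 fold change in each of the 25 alternatives, and the calls moved. DESeq2 called 3 members and 2 other splicing genes, with HNRNPK at -0.34 and HNRNPD at -0.24. With effective lengths it called 2 and 4, with HNRNPK at -0.39 and HNRNPD at -0.29. Each library left out in turn, in edgeR and in DESeq2, gave between 0 and 5 members and between 0 and 11 other splicing genes, with HNRNPK from -0.40 to -0.27 and HNRNPD from -0.29 to -0.19. The pairs whose ratios did not overlap numbered from 4 to 7 with 1 library left out. The family median was -0.063 with effective lengths in DESeq2, -0.062 in edgeR and -0.060 in limma on TPM, and lay from -0.058 to -0.034 with 1 library left out. The G doublet motif was in 7 members with gaps of 1 to 3 bases and in 29 with 4 doublets. The cause of these differences was not tested.

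Whether the replicate numbers pair the samples is not known. They are the pool numbers in the sample titles, which the control libraries carry as well. Deviations of same-numbered libraries from their group means correlated at -0.030, 0.047 and 0.048. Those of libraries with different numbers correlated between -0.11 and 0.083. With 3 libraries per group, and a different siRNA pool in each FOXL2 siRNA library, these values cannot decide it. With the replicate block edgeR called 0 members and 11 genes in all, against 40 without it, and DESeq2 called 2 members, HNRNPA0 and HNRNPK (-0.35), and 2 other splicing genes.

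Signs turned in PTBP3, the highest member on counts, in PTBP2 and in members near 0. PTBP2 and PTBP3 were at -0.10 and -0.046 with effective lengths in DESeq2, at -0.089 and -0.044 in edgeR, at -0.080 and -0.037 in limma on log2(TPM + 1), filtered or not, and at -0.086 and -0.040 on log2(TPM + 0.1). HNRNPLL was at 0.00022 where genes needed a mean of 50 counts. With 1 library left out, in edgeR and in DESeq2, values ranged from -0.11 to 0.27 for PTBP2, from -0.031 to 0.095 for PCBP4, from -0.031 to 0.081 for HNRNPH2, from -0.068 to 0.021 for HNRNPH1, from -0.028 to 0.0055 for HNRNPH3, from -0.029 to 0.046 for HNRNPL, from -0.030 to 0.022 for HNRNPLL, from -0.023 to 0.022 for HNRNPU, from -0.070 to 0.0026 for PCBP1 and from -0.073 to 0.030 for SYNCRIP.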
